A study of Mus musculus with 39 samples.

Results

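The MHC class II antigen presentation genes were followed by symbol through a table of 39676 mouse genes. Of 10 genes listed (H2-Aa, H2-Ab1, H2-Eb1, H2-DMa, H2-DMb1, H2-DMb2, H2-Oa, H2-Ob, Cd74 and Ciita), 8 were measured. Cd74 and Ciita were not analysed here. The 8 measured genes lie on chromosome 17 between bases 34092340 and 34316674 of GRCm38 (GENCODE M21 annotation), a span of 224335 bases.

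RNA was sequenced from 39 subcutaneous AB1-HA tumours, 1 tumour per mouse. The AB1-HA line derives from a mouse mesothelioma, was given the haemagglutinin gene of influenza virus, and was grown in BALB/c hosts. The groups were PBS (10 tumours), Tretinoin (9), ICT (10) and Tretinoin+ICT (10). Tretinoin is all-trans retinoic acid, and the labels give it at 5 mg/kg for 5 days from day 4 after inoculation. ICT, immune checkpoint therapy, was antibody against CTLA-4 together with antibody against PD-L1, 100 µg of each on day 7. The PBS mice got PBS with the tretinoin vehicle, DMSO. Mice were adults. Sex and age are not given per mouse in the labels, and the study's methods name both sexes over all its experiments. Xist, transcribed in female cells, had 4684 to 19038 counts in the 39 tumours, and the Y-linked genes Ddx3y, Uty, Eif2s3y and Kdm5d had at most 2 counts in any tumour. Each mouse carried a tumour on either flank. The 1 resected on day 9 was sequenced, and the other was followed for outcome. The labels call 6 Tretinoin+ICT tumours Responder and 4 Non-responder by that outcome. Response is not given for the other groups in the labels. The first digit of a tumour's number marks a name series (PBS 1 and 5, Tretinoin 3 and 7, ICT 6 and 8, Tretinoin+ICT 2 and 4). No series holds more than 1 treatment, so series and treatment cannot be told apart between treatments.

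Class II molecules carry peptides from endosomes to CD4 T cells. H2-Aa and H2-Ab1 encode the alpha and beta chains of I-A, and H2-Eb1 encodes the beta chain of I-E. H2-DMa pairs with H2-DMb1 or H2-DMb2 to form H2-M, which loads peptide in exchange for a fragment of the invariant chain, Cd74. H2-Oa and H2-Ob form H2-O, an inhibitor of H2-M found mainly in B cells and some dendritic cells. The genes are expressed by professional antigen-presenting cells and are induced in many other cells by interferon gamma through Ciita, a co-activator that does not itself bind DNA. Class II promoters hold an X box, bound by the RFX complex, and downstream of it a Y box, an inverted CCAAT bound by NF-Y.

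The promoter letters of 6 members are printed because these boxes are what class II genes are known to share, and the rule that chose the members used no sequence. They are from RefSeq on GRCm38.p6, 5′ to 3′ on the coding strand, from 130 to 31 bases before the gene's start. Capitals mark the Y box core GATTGG and the nearest X box letters GNAAC at 20 to 40 bases before it.
H2-Aa: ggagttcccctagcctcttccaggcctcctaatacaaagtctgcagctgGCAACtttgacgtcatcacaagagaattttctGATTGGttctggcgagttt
H2-Eb1: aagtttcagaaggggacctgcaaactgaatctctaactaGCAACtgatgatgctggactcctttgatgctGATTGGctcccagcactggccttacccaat
H2-DMb1: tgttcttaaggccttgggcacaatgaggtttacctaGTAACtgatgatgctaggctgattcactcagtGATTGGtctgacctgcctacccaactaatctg
H2-DMb2: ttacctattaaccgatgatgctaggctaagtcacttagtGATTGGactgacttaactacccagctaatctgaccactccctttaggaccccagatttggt
H2-Oa: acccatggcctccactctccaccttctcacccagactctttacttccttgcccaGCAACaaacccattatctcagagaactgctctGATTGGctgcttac
H2-Ob: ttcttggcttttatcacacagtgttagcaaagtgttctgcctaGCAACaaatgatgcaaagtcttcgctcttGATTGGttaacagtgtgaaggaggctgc

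The windows are chr17:34287854-34287953 (minus strand) for H2-Aa, chr17:34305737-34305836 for H2-Eb1, chr17:34153061-34153160 for H2-DMb1, chr17:34145119-34145218 for H2-DMb2, chr17:34092249-34092348 for H2-Oa and chr17:34238775-34238874 for H2-Ob, the last 5 on the plus strand. The Y core started at position -49 in H2-Aa, -60 in H2-Eb1, -62 in H2-DMb1, -91 in H2-DMb2, -44 in H2-Oa and -58 in H2-Ob. In H2-Aa, H2-DMb1 and H2-Oa the GNAAC began 32 bases before the Y core. The distance was 31 bases in H2-Eb1 and 29 bases in H2-Ob. The H2-DMb2 window held no GNAAC at that distance. H2-DMa has 2 RefSeq windows. The first held no GATTGG before the start on either strand. The second held GATTGG at -199, with no GNAAC at 20 to 40 bases before it. Over all 32851 RefSeq windows of 250 bases before to 50 bases after a start, GATTGG on either strand was in 16.1%, GNAAC on either strand was in 84.8%, and the pair at 20 to 40 bases on 1 strand was in 1.21%. The letters of both motifs were chosen after these sequences had been seen, so the matches are a description. RefSeq entries for H2-Ab1, Cd74 and Ciita were not used here.

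Depth was 14033046 to 37951183 counts per tumour, with a median of 18548168, and no pair of tumours was a duplicate. Levels are in CPM, counts scaled to a common library size with factors from the trimmed mean of M-values (TMM). In bulk tumour RNA, fewer cells of a type and less RNA per cell cannot be told apart. Of 7 listed mesothelioma cell markers 4 were found. Pdpn was at 57.8 to 95.2 CPM and Wt1 at 0.253 to 5.46 CPM, whereas Krt19 was at most 0.967 CPM and Upk3b at most 0.0617 CPM. Tumours 14 (PBS), 33 (Tretinoin), 63 and 82 (ICT) stood apart from their groups, and the results that rest on them are given with and without them.

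The classical chains were the most abundant members and the H2-O chains the least. Per kilobase of exon, the median level in the PBS tumours was 115 CPM for H2-Eb1, 77.5 CPM for H2-Aa and 64.999 CPM for H2-Ab1. It was 21.7 CPM for H2-DMb1, 18.9 CPM for H2-DMb2 and 14.8 CPM for H2-DMa. H2-Oa, at 1.14 CPM per kilobase, and H2-Ob, at 0.554 CPM per kilobase, were far lower, and H2-Oa rested on 15 to 111 counts per tumour and H2-Ob on 30 to 187. Across the 39 tumours the highest level was 10.2 times the lowest for H2-Aa, 11.5 times for H2-Ab1 and 11.3 times for H2-Eb1. The range was 8.54-fold to 9.60-fold for the H2-M chains, 5.42-fold for H2-Oa and 6.196-fold for H2-Ob. The lowest tumour was a PBS tumour for all 8 members.

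**Figure D1:**
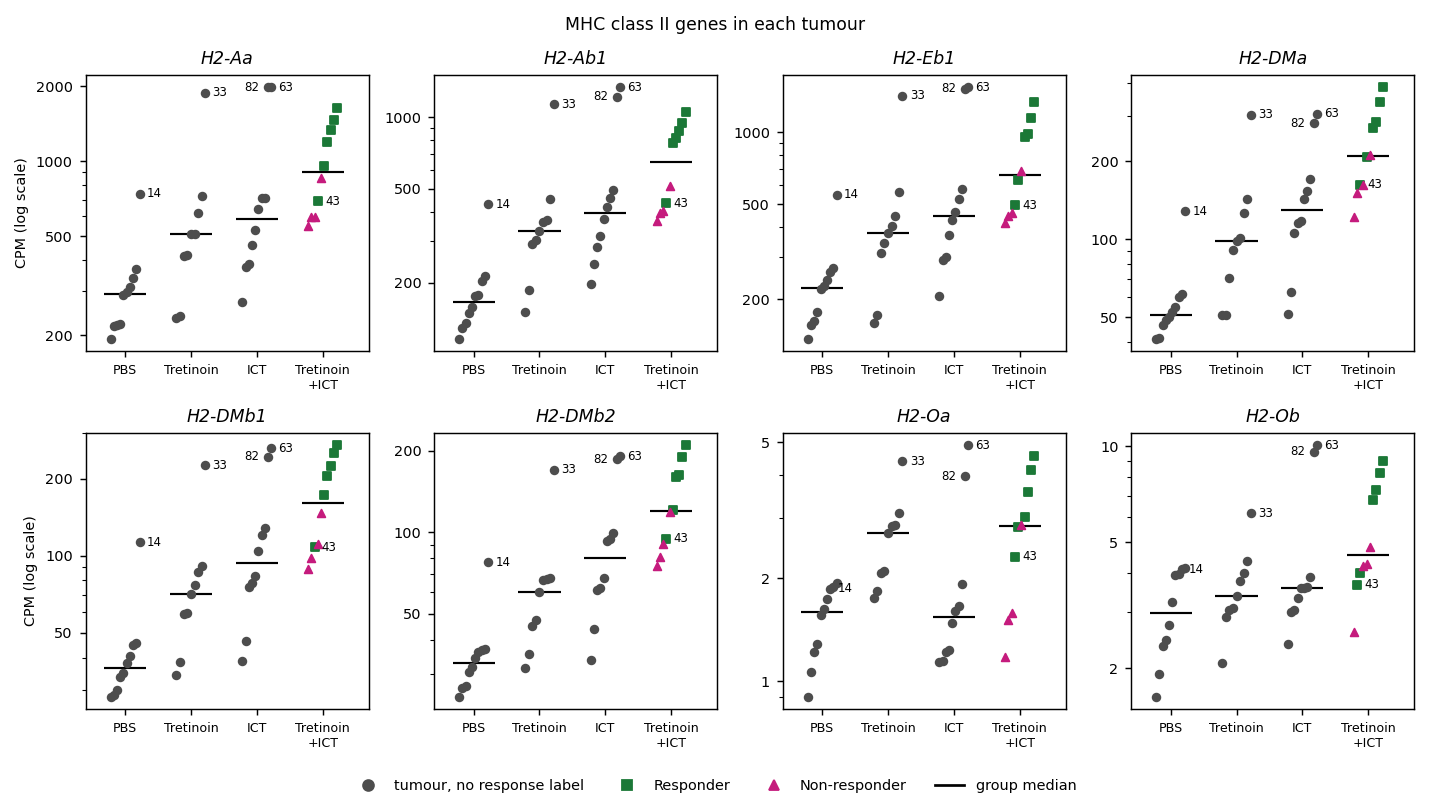
Level of each of the 8 measured class II genes in each of the 39 tumours, in CPM on a log axis, by treatment group, with the Tretinoin+ICT tumours marked as Responder or Non-responder and the group medians drawn as bars. H2-Ab1 medians were 167, 332, 395 and 646 CPM in PBS, Tretinoin, ICT and Tretinoin+ICT, and the groups overlapped for every gene.

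Tretinoin alone was compared with PBS to ask what the retinoid changed without antibody. Of the 8 members, 4 rose (H2-Ab1, H2-DMa, H2-DMb2 and H2-Oa) at an adjusted p below 0.05, beside 11.5% of all 14340 genes tested that were higher, and 1 of them (H2-Ab1) rose by at least 1 on the log2 scale, beside 1.49% of all genes. The median log2 fold change of the members was 0.94, against 0.01 over all genes. All tests of fold changes are edgeR's quasi-likelihood test of the named groups alone, with Benjamini-Hochberg adjustment over all genes tested.

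H2-Ab1, the I-A beta chain, ranged from 116 to 430.1 CPM with a median of 167 CPM in the PBS tumours. In the Tretinoin tumours it ranged from 152 to 1132 CPM with a median of 332 CPM. The groups overlapped, and 2 of 9 Tretinoin tumours were above every PBS tumour. The log2 fold change was 1.08 ± 0.33 (SE, n = 9 and 10, edgeR adjusted p = 0.029). H2-Oa, a chain of the H2-M inhibitor, separated the groups most of the members. It was 0.902 to 1.93 CPM (median 1.60 CPM) in PBS and 1.76 to 4.39 CPM (median 2.72 CPM) in Tretinoin. Of 9 Tretinoin tumours, 7 were above every PBS tumour, and the log2 fold change was 0.80 ± 0.18 (edgeR adjusted p = 0.0038). H2-DMa, the H2-M alpha chain, had medians of 51.2 CPM in PBS and 98.1 CPM in Tretinoin, with overlapping ranges of 41.3 to 128 CPM and 51.1 to 303 CPM. Its log2 fold change was 0.98 ± 0.31 (edgeR adjusted p = 0.033), and that of H2-DMb2 was 0.87 ± 0.29 (edgeR adjusted p = 0.041). H2-Aa had a log2 fold change of 0.95, H2-Eb1 of 0.96 and H2-DMb1 of 0.92, and all missed the threshold at edgeR adjusted p = 0.068, 0.069 and 0.062. H2-Ob, the other H2-O chain, differed by 0.26 on the log2 scale with a 95% interval from -0.15 to 0.67. These calls moved with single tumours. Without PBS tumour 14, the highest PBS tumour for 6 members, 7 members passed the test, beside 1925 of 14302 genes higher. Without Tretinoin tumour 33, the highest Tretinoin tumour for all 8, only H2-Oa passed, beside 1348 of 14402 genes higher.

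ICT alone was compared with PBS to ask what the antibodies changed. The classical and H2-M chains, 6 of the 8 members, rose, and all 6 by at least 1 on the log2 scale. Of 14155 genes tested, 14.1% were higher and 2.28% were higher by at least 1. The median of the members was 1.36, against -0.02 over all genes.

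H2-Ab1 ranged from 197 to 1339 CPM with a median of 395 CPM in the ICT tumours, and 4 of 10 were above every PBS tumour. Its log2 fold change was 1.4975 ± 0.35 (edgeR adjusted p = 0.0079). H2-Aa, its partner chain, ranged from 273 to 1979.8 CPM with a median of 585.2 CPM, against 194 to 739 CPM with a median of 294 CPM in PBS. It rose by 1.33 ± 0.37 (SE, log2; edgeR adjusted p = 0.017), and H2-Eb1 by 1.37 ± 0.37 (edgeR adjusted p = 0.014). The lower ICT tumours lay within the PBS range for each of these chains. H2-DMa was 51.5 to 305 CPM (median 129.98 CPM) in ICT and rose by 1.36 ± 0.30 (SE, log2; edgeR adjusted p = 0.0052). The beta chains H2-DMb1 and H2-DMb2 rose by 1.43 ± 0.35 and 1.36 ± 0.30 on the same scale. H2-Oa, with 1.14 to 4.89 CPM and a median of 1.55 CPM in ICT beside 1.60 CPM in PBS, had a log2 fold change of 0.41 with a 95% interval from -0.14 to 0.97 (edgeR adjusted p = 0.27). H2-Ob was 2.39 to 10.1 CPM in ICT and 1.63 to 4.15 CPM in PBS, and differed by 0.59 on the log2 scale (edgeR adjusted p = 0.11). The highest values of both H2-O chains in ICT were in tumour 63.

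Under the combination all 8 members rose against PBS, 6 of them by at least 1 on the log2 scale. Of 14265 genes tested, 25.7% were higher and 5.45% were higher by at least 1. The median of the members was 1.73, against -0.01 over all genes.

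The H2-M chains had the largest fold changes of the members. H2-DMa was 122 to 386 CPM with a median of 209.8 CPM in Tretinoin+ICT, 9 of 10 tumours were above every PBS tumour, and the log2 fold change was 1.98 ± 0.24 (edgeR adjusted p = 3.2e-06). H2-DMb1 was 28.1 to 113 CPM in PBS and 89.0 to 269.9 CPM in Tretinoin+ICT, and rose by 1.95 ± 0.28 (SE, log2). H2-DMb2 was 24.6 to 77.5 CPM in PBS and 75.3 to 210.0 CPM in Tretinoin+ICT, and rose by 1.86 ± 0.23 (SE, log2). For H2-DMb1 6 of 10 and for H2-DMb2 9 of 10 Tretinoin+ICT tumours were above every PBS tumour. H2-Ab1 was 363 to 1054 CPM with a median of 646 CPM and rose by 1.81 ± 0.26 (SE, log2; edgeR adjusted p = 1.9e-05). H2-Aa rose by 1.63 ± 0.26 and H2-Eb1 by 1.66 ± 0.27 (SE, log2). Their lowest Tretinoin+ICT values, 551 CPM and 418 CPM, lay below the highest PBS values of 739 CPM and 548 CPM, both from tumour 14. The H2-O chains moved less. H2-Oa was 1.18 to 4.55 CPM (median 2.84 CPM) and rose by 0.88 ± 0.22 (SE, log2; edgeR adjusted p = 0.0025), and H2-Ob was 2.61 to 9.02 CPM (median 4.55 CPM) and rose by 0.86 ± 0.22 (edgeR adjusted p = 0.0031). For each H2-O chain 7 of 10 tumours were above every PBS tumour. Each of the 8 values was positive in all 4 pairings of a Tretinoin+ICT series with a PBS series.

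**Figure D2:**
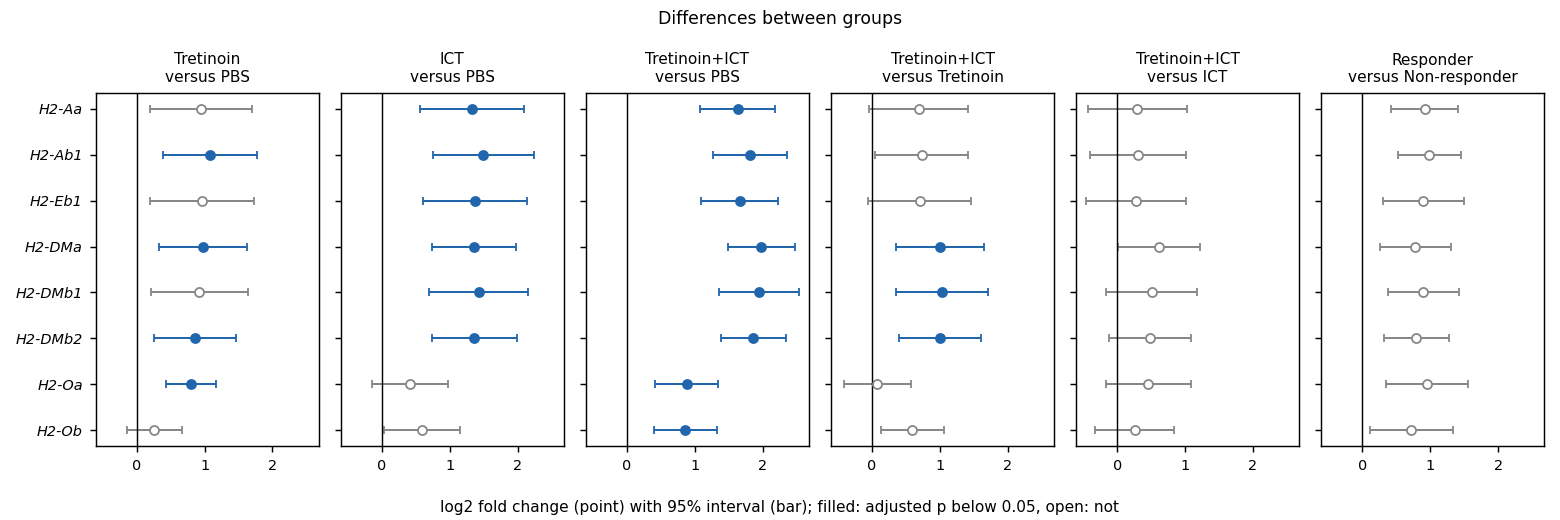
Log2 fold change of each member in the group comparisons other than Tretinoin against ICT. Bars are the 95% interval of edgeR's quasi-likelihood fit, and points are filled where the adjusted p was below 0.05. In Tretinoin+ICT against PBS all 8 passed, from 0.86 for H2-Ob to 1.98 for H2-DMa, and in Responder against Non-responder none did.

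Between the treated groups, the H2-M chains differed most clearly. In Tretinoin+ICT against Tretinoin, H2-DMa, H2-DMb1 and H2-DMb2 were higher, by 1.001 ± 0.31, 1.03 ± 0.32 and 0.996 ± 0.29 (SE, log2; edgeR adjusted p = 0.030, 0.031 and 0.022), and 2 of the 3 passed at least 1. Of 14393 genes tested, 12.3% were higher and 1.87% by at least 1. The classical chains differed by 0.68 to 0.73 and did not pass (edgeR adjusted p = 0.11 to 0.16). H2-Oa differed by 0.08 with a 95% interval from -0.42 to 0.57. Without Tretinoin tumour 33, 7 members passed, beside 2367 of 14465 genes higher.

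In Tretinoin+ICT against ICT, no member passed the test, 1 (H2-DMa) had an unadjusted p below 0.05, and DESeq2 called 0 as well. The background at an adjusted p below 0.05 was 1.57% of 14202 genes higher and 0.366% by at least 1. All 8 values were positive, from 0.26 for H2-Ob to 0.61 for H2-DMa, and the 95% interval of H2-Ab1 ran from -0.40 to 1.01. With ICT tumours 63 and 82 both left out, all 8 passed at 0.73 to 0.99 (log2), while the genes higher over the whole table went from 223 of 14202 to 1372 of 14322. These tumours were the highest in ICT for every member (H2-Ab1 at 1339 and 1222 CPM, the next at 491 CPM). Leaving both out therefore raises the difference by construction, and the calls are no independent check. Leaving out either alone gave 0 members. In Tretinoin against ICT, no member passed with edgeR or DESeq2, while 5.41% of 14314 genes were higher at an adjusted p below 0.05 in edgeR. None of the members had an unadjusted p below 0.05. Of the 8 log2 fold changes 7 were negative, down to -0.51 for H2-DMb1, and H2-Oa was at 0.39. The 95% interval of H2-Ab1 ran from -1.27 to 0.43. By medians the order was PBS, Tretinoin, ICT and Tretinoin+ICT for 7 members, and the steps from Tretinoin to ICT and from ICT to Tretinoin+ICT did not pass the test for any of them. For H2-Oa the order was ICT, PBS, Tretinoin and Tretinoin+ICT.

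A term for the product of the treatments asked whether tretinoin changed a gene by a different amount with ICT than without. No member passed in edgeR or DESeq2, beside 46 of 14977 genes (0.307%) at an adjusted p below 0.05 in edgeR. None of the members had an unadjusted p below 0.05, a level at which all genes were not counted. The term was negative for all 8, from -0.77 for H2-Ab1 (95% interval -1.76 to 0.21) to -0.01 for H2-Ob. Its sign turned for all 8 when tumours 14, 33, 63 and 82 were left out.

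Within the combination group, the day 9 tumours of later responders were compared with those of non-responders. No member passed the edgeR test, nor did any of 14604 genes (0% called at an adjusted p below 0.05). All 8 members had an unadjusted p below 0.05, but the share of all genes at that level was not counted. It was also reached by 6 of 7 macrophage markers, 7 of 10 class I genes and 4 of 5 T cell markers, and by 1 of 7 B cell markers. DESeq2 called 7 of the 8, beside 864 higher and 537 lower of the 12817 genes it tested. All 8 log2 fold changes were positive, from 0.72 for H2-Ob to 0.99 for H2-Ab1, with a median of 0.90 against 0.01 over all genes.

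H2-Ab1 was at 363, 511, 400.4 and 396 CPM in the Non-responder tumours 21, 23, 25 and 44. In the Responder tumours 22, 24, 41, 42, 43 and 45 it was at 871, 817, 948, 1054, 433 and 781 CPM. Tumour 43 alone of the 6 lay within the Non-responder range. The log2 fold change was 0.99 ± 0.21 (SE, n = 6 and 4, edgeR adjusted p = 0.084). H2-Aa was at 551, 856, 597 and 598 CPM in the 4 Non-responder tumours, and at 1338, 1191, 1639.5, 1459, 689.7 and 959 CPM in the 6 Responder tumours, and 5 of 6 were above every Non-responder tumour. Its log2 fold change was 0.92 ± 0.23 (edgeR adjusted p = 0.086). For H2-DMb1 and H2-DMb2 as well, 5 of 6 Responder tumours were above every Non-responder tumour, and for H2-Eb1, H2-DMa, H2-Oa and H2-Ob it was 4 of 6. H2-Oa was at 1.18, 2.86, 1.51 and 1.58 CPM in the Non-responder tumours, with 2.86 CPM from tumour 23, and at 4.55, 2.82, 4.14, 3.58, 2.32 and 3.02 CPM in the Responder tumours. H2-Ob was at 4.25, 4.84, 2.61 and 4.22 CPM against 8.27, 6.77, 9.02, 7.28, 3.67 and 4.00 CPM, so that tumours 43 and 45 lay among the non-responders. Without tumour 43, 7 members passed the edgeR test, beside 971 higher and 834 lower of 14540 genes, so the calls changed across the whole table. With any 1 of the other 9 left out no member passed. With the name series as a block, the log2 fold changes were 0.78 to 1.03 and none passed.

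Macrophage and monocyte markers rose with the members against PBS more often than B and T cell markers did. Of all genes tested, 11.5%, 14.1% and 25.7% were higher against PBS in Tretinoin, ICT and Tretinoin+ICT. The 7 macrophage markers found summed to 1893 to 3199 CPM in PBS, with tumour 14 highest. The sum was 2248 to 4827 CPM in Tretinoin (highest in tumour 33) and 2030 to 4837 CPM in ICT (highest in tumour 63), as for most members, and 2864 to 4638 CPM in Tretinoin+ICT. In the Responder tumours it was 3557 to 4638 CPM, narrowly above the Non-responder range of 2864 to 3543 CPM. For each single marker the Responder and Non-responder tumours overlapped. None of the 7 passed the test there (lowest edgeR adjusted p = 0.092), nor did any of all 14604 genes tested. Of these 7 markers, 5 rose in Tretinoin, 7 in ICT and 7 in Tretinoin+ICT against PBS, among them Mertk, a receptor for engulfing dying cells, at 0.55, 1.22 and 1.23 (log2). The 8 dendritic cell markers summed to 72.2 to 132 CPM in PBS and 122 to 330.3 CPM in Tretinoin+ICT. Of these 8, 2, 3 and 4 rose in the 3 comparisons with PBS. The largest rise was in Batf3, a factor of cross-presenting dendritic cells, at 1.34, 1.95 and 2.97 (log2). Batf3 had 17 to 388 counts per tumour. The lowest log2 fold change of the 8 was -0.38, -0.16 and 0.06, and 5, 7 and 8 of them were positive. The 8 B cell markers summed to 10.0 to 38.7 CPM over all tumours, with Fcer2a at most 0.52 CPM and Cr2 at most 1.12 CPM. Of the B cell markers tested, 1 of 6, 0 of 5 and 2 of 7 rose against PBS. None of the 5 T cell markers passed any comparison. Monocyte markers (4) rose in 1, 4 and 4 cases and the 4 tested neutrophil markers in 0, 4 and 4. The part of these cells in the class II results was not tested.

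Ratios within a tumour set H2-Ab1 against single genes of those cells. Against Ptprc, the pan-leukocyte gene CD45, H2-Ab1 was higher than in PBS by 0.81 ± 0.21 in Tretinoin, 0.83 ± 0.16 in ICT and 1.08 ± 0.16 in Tretinoin+ICT (difference in mean log2 ratio ± SE, permutation test with 42 tests adjusted together, adjusted p = 0.0017, 0.00090 and 0.00042). For this ratio all 10 Tretinoin+ICT tumours were above every PBS tumour. Against Csf1r, the macrophage growth factor receptor, the differences were 0.67, 0.84 and 1.27 (permutation, adjusted p = 0.028, 0.0033 and 0.00053). Against H2-K1, a class I heavy chain, they were 0.63, 0.77 and 0.97 (permutation, adjusted p = 0.0071, 0.0018 and 0.00063). In Responder against Non-responder tumours the ratio to H2-K1 was higher by 0.63 ± 0.18 (exact permutation test, adjusted p = 0.038), that to Csf1r by 0.63 (exact permutation, adjusted p = 0.070) and that to Ptprc by 0.50 (exact permutation, adjusted p = 0.075). In the comparisons with PBS, H2-Ab1 therefore differed by more than any of these 3 genes did in the same tumours. How far the mix of cells enters these ratios was not tested.

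Other ratios set the members against each other. H2-DMa over H2-Oa, the H2-M alpha chain over that of its inhibitor, was higher than in PBS by 0.99 ± 0.21 in ICT and 1.21 ± 0.17 in Tretinoin+ICT (log2 ± SE, permutation, adjusted p = 0.0015 and 0.00042). In Tretinoin it differed by 0.09 ± 0.27 (exact permutation, adjusted p = 0.74). Between the treated groups it was lower in Tretinoin than in ICT, by -0.89 ± 0.28 (exact permutation, adjusted p = 0.012), and higher in Tretinoin+ICT than in Tretinoin, by 1.12 ± 0.26 (exact permutation, adjusted p = 0.0017). On variance stabilized values the difference between Tretinoin and PBS was 0.38 (exact permutation, adjusted p = 0.20), and that between Tretinoin and ICT was -0.67 and did not pass (exact permutation, adjusted p = 0.053). H2-DMb1 over H2-Ob was higher than in PBS by 0.57, 0.83 and 1.17 in Tretinoin, ICT and Tretinoin+ICT (permutation, adjusted p = 0.031, 0.0059 and 0.00063). H2-Ob over H2-Ab1 was lower by -0.68, -0.83 and -0.9995 (permutation, adjusted p = 0.0071, 0.0017 and 0.00042). None of these 3 ratios passed between Responder and Non-responder tumours.

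**Figure D3:**
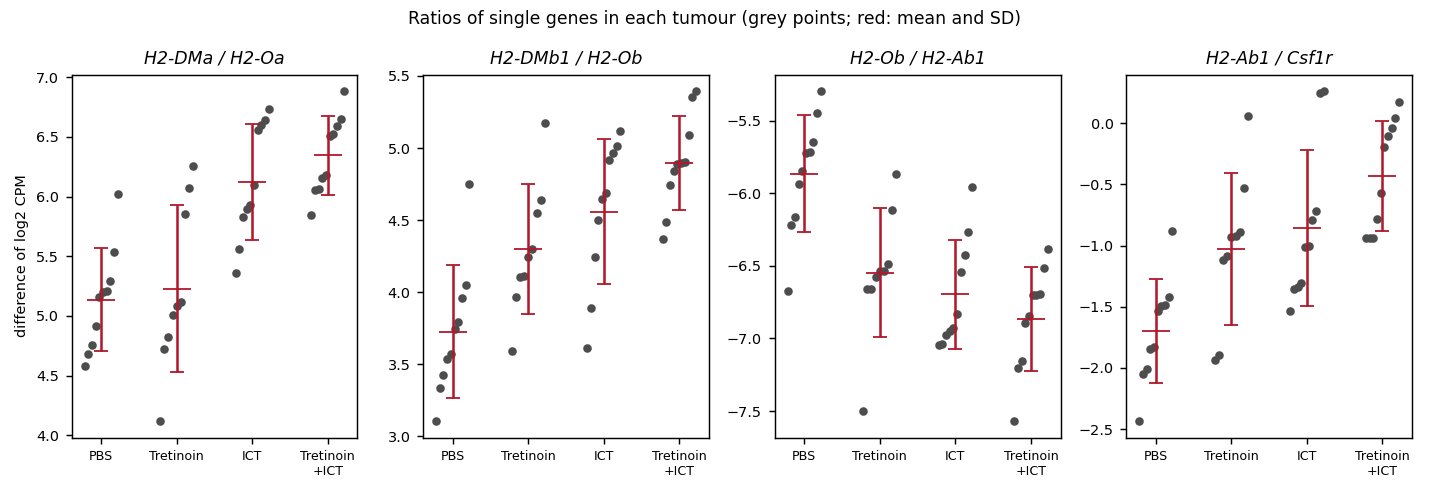
Log2 ratio of 2 genes in each tumour, by treatment group, with the mean and SD of each group. The ratios drawn are H2-DMa over H2-Oa, H2-DMb1 over H2-Ob, H2-Ob over H2-Ab1 and H2-Ab1 over Csf1r. H2-DMa over H2-Oa averaged 5.13 in PBS, 5.23 in Tretinoin, 6.12 in ICT and 6.35 in Tretinoin+ICT.

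Across the 39 tumours, with each treatment's mean removed, the classical and H2-M chains followed each other closely. Over their 15 pairs Pearson's r of log2 CPM was 0.93 to 0.996 (Spearman's rho at least 0.89, and r at least 0.89 within every treatment). The H2-O chains followed those 6 genes less closely, at r 0.68 to 0.86 over 12 pairs. All points share library and depth, and the H2-O chains have low counts.

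**Figure D4:**
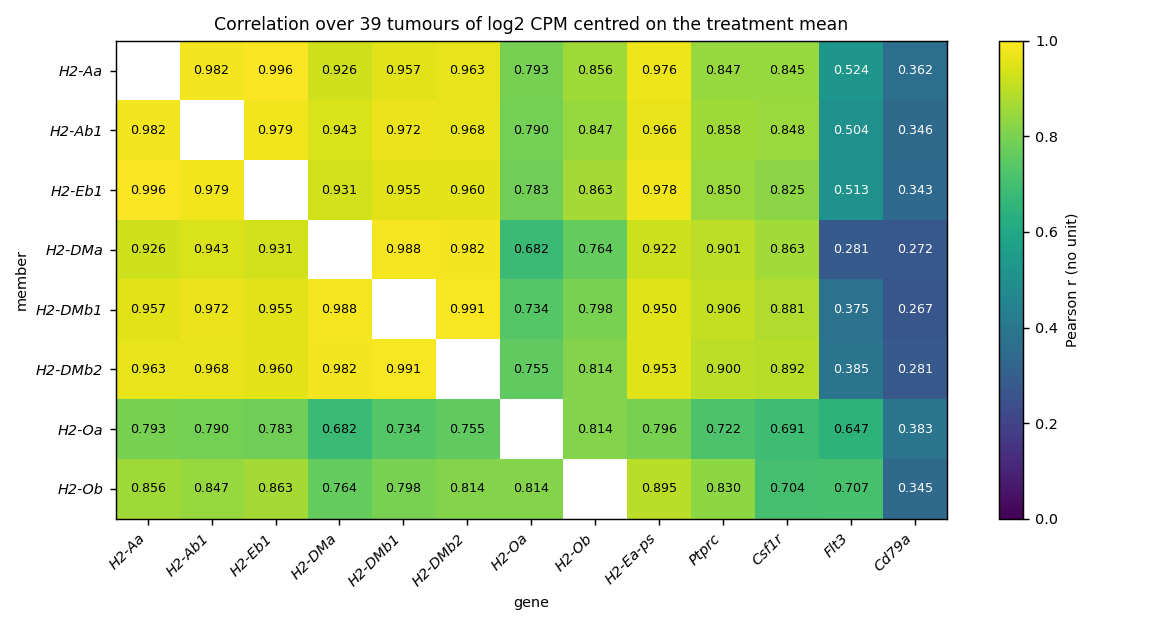
Pearson's r between members, and between members and single genes, over 39 tumours after removal of treatment means, with the value printed in each cell. Pairs of classical and H2-M chains lie at 0.926 or above and pairs with H2-Oa or H2-Ob and those chains at 0.863 or below.

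The members also moved with leukocyte genes from tumour to tumour. With Ptprc r was 0.72 (H2-Oa) to 0.91 (H2-DMb1), and with Csf1r it was 0.69 (H2-Oa) to 0.89 (H2-DMb2). Every 1 of these 16 relations held after the 2 most extreme tumours were left out (r at least 0.59), and the largest permutation p of r was 3e-05 (5.6e-05 adjusted over the 32 relations). Spearman's coefficient was at least 0.54, with a largest permutation p of 0.00098 (0.0016 adjusted). Within treatments, H2-Oa was at r 0.41 and 0.31 with Ptprc in PBS and Tretinoin but at 0.89 and 0.84 in ICT and Tretinoin+ICT. With Csf1r in PBS, r was 0.18 for H2-Oa and 0.29 for H2-Ob. With Flt3, a receptor of dendritic cells, r ran from 0.28 for H2-DMa (permutation p = 0.10) to 0.65 for H2-Oa and 0.71 for H2-Ob. Spearman's rho of H2-DMa with Flt3 was 0.33 (permutation p = 0.047, adjusted p = 0.063). With Cd79a, a B cell gene, r was 0.27 to 0.38 for all 8 members and fell to between 0.04 and 0.21 without the 2 extreme tumours, so these relations rest on those tumours. The sign also differed between treatments. Within PBS r with Cd79a was negative for all 8 members (-0.68 to -0.21), while it was 0.50 to 0.66 within Tretinoin and 0.41 to 0.74 within ICT.

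By the same measure over 12111 genes, the non-member most like H2-Aa and H2-Eb1 was H2-Ea-ps (r = 0.98 for both), followed by Ccl5 (0.97 for both), a chemokine for T cells. For H2-Ab1 it was Ctsh (0.97), a lysosomal protease. For H2-DMa it was the class I gene H2-D1 (0.97), for H2-DMb1 Irf8 (0.97), a factor of myeloid and dendritic cells, and for H2-DMb2 Plbd1 (0.97). H2-Oa was most like Cyp27a1 (0.87) and then Cd3g (0.86), a T cell receptor subunit, and H2-Ob was most like Cytip, RP24-94F12.3 and Cxcr6, each at 0.91.

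The rest of the class II pathway moved unevenly. Beside the counts below, 11.5%, 14.1% and 25.7% of all genes tested were higher against PBS in Tretinoin, ICT and Tretinoin+ICT. In Tretinoin+ICT 3501 of 14265 genes were lower. Of 7 genes of the interferon gamma axis, 3 rose in Tretinoin, 5 in ICT and 7 in Tretinoin+ICT against PBS. Irf1, an interferon-induced transcription factor, rose by 1.01 ± 0.25, 1.02 ± 0.27 and 1.86 ± 0.20 (SE, log2). The 8 regulators that bind class II promoters or assist there changed little. Against PBS, 3 rose in Tretinoin, 0 passed in ICT, and in Tretinoin+ICT 3 rose and 1 fell, with all values between -0.22 and 0.24. Rfx5, an RFX subunit, was at 0.22, 0.12 and 0.17 (log2), of which the first and last passed. Of 8 lysosomal genes, 2, 6 and 6 rose and 0, 0 and 1 fell. Ctss, the protease that trims the invariant chain, was at 0.49 in Tretinoin (edgeR adjusted p = 0.089) and rose by 0.96 in ICT and 1.21 in Tretinoin+ICT. March1, a ligase that removes class II from the cell surface, rose by 0.73, 1.03 and 1.36 (log2). Of 4 costimulation genes 2, 4 and 4 rose, Cd40 by 0.83, 1.0003 and 1.66, and Pdcd1lg2, which encodes the checkpoint ligand PD-L2, by 2.01, 3.18 and 4.02. Of 10 class I genes 3, 10 and 10 rose, with medians of 0.66, 0.78 and 1.196, beside class II medians of 0.94, 1.36 and 1.73. Cd4 and Lag3, the receptors for class II on T cells, did not pass in any comparison. In Responder against Non-responder tumours no gene of these lists passed, nor did any of all 14604 genes tested.

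Parts of the members' sequences are not theirs alone. Of the 100-base stretches of exon sequence, 179 were identical in H2-DMb1 and H2-DMb2, 11.3% of those of H2-DMb1 and 10.3% of those of H2-DMb2, so how reads split between this pair is uncertain. H2-DMa shared 264 stretches (6.58%) with Brd2 on the opposite strand, and how the counting treated strand is not given in the sources used here. Brd2 was 312 to 431 CPM, and its log2 fold change was 0.24 or less in the comparisons with PBS, against 0.98 to 1.98 for H2-DMa. H2-Oa shared 135 stretches (8.98%) with BC051537, which was at most 0.23 CPM. No such stretch was found for H2-Aa, H2-Ab1, H2-Eb1 or H2-Ob. H2-Eb1 overlaps the antisense gene Gm20513.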

How the data were processed

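Raw counts per gene were deposited. The authors made them from 100-base single-end NovaSeq reads, and the submitters' processing notes and the methods name bcl2fastq 2.20.0.422, HISAT2 2.0.4, a genome called mm11 and SummariseOverlaps. Strand and multimapping settings are not given in the sources used here. BALB/c carries other class II alleles than the reference strain, which can lower counts of polymorphic genes.

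Symbols were those of the table. Coordinates and exon sequence came from GENCODE M21 (GRCm38) by gene ID, with version numbers that differ for all 8 members. The deposited counts, 14033046 to 37951183 per tumour, were tested with edgeR 4.0.16 in R 4.3.3 (TMM, filterByExpr, robust quasi-likelihood, only the groups compared, adjusted p below 0.05, and also with a log2 fold change of at least 1). All 8 members passed the low-count filter in every comparison. The study's own test was DESeq2, used here as an alternative (1.42.0). CPM used all 39 tumours and, on the log2 scale, a prior count of 2. Ratios and relations used log2 CPM with permutation tests, exhaustive if either group held under 10 tumours and drawn 100000 times if not, computed in Python 3.11.15. The smallest p of 100000 resamples is 1e-05. The scripts were tested on simulated data.

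Groups came from the labels. Nothing pairs tumours across groups. The members and all gene lists were chosen with earlier results of these data known. The text names all members, up to 4 genes of each list by smallest adjusted p in a comparison, and for likeness the 3 non-members with the highest r among genes with a mean log2 CPM of at least 1. Fcer2a, Cr2, the mesothelioma markers and the sex transcripts are named as checks of the samples, and Brd2, BC051537 and Gm20513 for their overlaps, chosen after values were seen. Ratios and relations with Cd74, Ciita or Ifng were not analysed here, which left 6 of 8 planned ratios (42 tests) and 32 relations. The study's text gives the tretinoin dose differently in places, and the labels were followed. Alternatives were another test, another normalization, no filter, 1 fit over all groups, other fold minimums, name series, leaving out tumours, and variance stabilized values.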

Additional observations from a re-analysis of the deposited data

Results flagged for a closer look

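A gap test (the distance from the highest or lowest tumour to its neighbour, divided by the group's range, against Dixon's 95% critical value) was run on 48 sets of values, 8 members in 6 groups, and marked 8. Chance marks about 1 in 20 such sets, and the members are correlated, so these 8 are not independent. PBS tumour 14 was marked as high for 6 members, with a gap of 0.52 of the range for H2-Aa, 0.537 for H2-Ab1, 0.506 for H2-Eb1, 0.65 for H2-DMa, 0.653 for H2-DMb1 and 0.643 for H2-DMb2. Its levels of the H2-O chains, 1.87 CPM for H2-Oa and 4.11 CPM for H2-Ob, lay within the other PBS tumours. Tretinoin tumour 33 was marked for H2-DMb2, at 170.3 CPM and a gap of 0.546. Responder tumour 43 was marked as low for H2-Ab1, at 433 CPM and a gap of 0.662. ICT tumours 63 and 82 were not marked, and lay close to each other.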

How the results depend on the processing

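In ICT against PBS and in Tretinoin+ICT against PBS the counts of members called were 6 and 8. They were the same under DESeq2, other normalization, no filter, the fit of all 39 tumours and without tumours 14, 33, 63 and 82. Over the whole table, genes higher ran from 1592 (of 27238, no filter) to 2288 (of 16147, DESeq2) in the first. In the second they ran from 3659 (of 14332, without the 4 tumours) to 4043 (of 19979, DESeq2). In Tretinoin against PBS the count was 4, beside 1645 of 14340 genes higher. It became 7 with DESeq2 (1875 of 16202 genes) and 1 without the low-count filter (1234 of 27330). It became 1 with a log2 fold change of at least 1 (213 of 14340) and 7 without tumours 14, 33, 63 and 82 (1691 of 14391). Without tumour 14 alone it was 7 (1925 of 14302), and without tumour 33 alone it was 1 (1348 of 14402). In Tretinoin+ICT against Tretinoin the count was 3, beside 1777 of 14393 genes higher. It became 1 without the filter (1350 of 27426 genes) and 7 without tumour 33, alone or with the others (2367 of 14465). Without the 4 tumours the count of 0 became 8 in Tretinoin+ICT against ICT (beside 1372 of 14322 genes higher, from 223 of 14202). This follows from leaving out tumours 63 and 82, the highest in ICT for every member. In Tretinoin against ICT the count of 0 became 1 (beside 984 of 14254 genes higher, from 774 of 14314), where H2-Oa passed at 0.77 (edgeR adjusted p = 0.0039). In Responder against Non-responder the count of 0 became 7 with DESeq2 (beside 864 of 12817 genes higher) and ranged from 0 to 7 with 1 tumour left out (beside 971 of 14540 genes higher without tumour 43). The cause of these changes was not tested, beyond the tumours named.

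Without the 4 tumours the sign turned in ICT against PBS for H2-Oa (-0.041), in Tretinoin against ICT for H2-Ob (0.0229) and in the product term for H2-Aa (0.20), H2-Ab1 (0.0054), H2-Eb1 (0.18), H2-DMa (0.15), H2-DMb1 (0.15), H2-DMb2 (0.17), H2-Oa (0.24) and H2-Ob (0.54), none past the test. The product term of H2-Ob was 0.0053 without the filter. Between single name series the sign turned for H2-Ob in Tretinoin series 7 against PBS series 5 (-0.19), for H2-Aa (0.17), H2-Ab1 (0.0399), H2-Eb1 (0.12) and H2-DMa (0.0504) in Tretinoin series 3 against ICT series 6, and for H2-Oa in Tretinoin+ICT series 2 (-0.21) and 4 (-0.0387) against Tretinoin series 3. On variance stabilized values the H2-DMa over H2-Oa ratio between Responder and Non-responder tumours was 0.16 in place of -0.20. Of 192 values between single series, 142 kept direction and call. No paired analysis was possible because the replicate numbers only name tumours of different mice. With name series as a block 0 members passed between Responder and Non-responder tumours (edgeR adjusted p = 0.13 to 0.19). Tests with Cd74, Ciita and Ifng were not run. The 6 against 4 tumours limit the response comparison, whose exact permutation tests cannot go below p = 0.0048, and low counts limit H2-Oa and H2-Ob.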

Other observations

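H2-Ea-ps, which the annotation calls a polymorphic pseudogene because the I-E alpha chain is not made in the reference strain, was at a CPM close to that of H2-Eb1, and per kilobase of exon its PBS median was 217 CPM beside 115 CPM for H2-Eb1. It was 146 to 545 CPM in PBS and 411 to 1341 CPM in Tretinoin+ICT, and rose by 1.03 ± 0.32, 1.29 ± 0.34 and 1.57 ± 0.27 (SE, log2) in Tretinoin, ICT and Tretinoin+ICT against PBS (edgeR adjusted p = 0.031, 0.014 and 0.00013). Its ratio to H2-Eb1 in CPM had group medians of 0.974 to 1.11, and 1 Tretinoin tumour reached 1.69. H2-Eb2 had 0 to 10 counts per tumour.

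The ratio of H2-Aa to H2-Ab1, the chains of I-A, was 1.48 to 2.33 in PBS, 1.25 to 1.68 in Tretinoin, 1.32 to 1.62 in ICT and 1.23 to 1.73 in Tretinoin+ICT, with the highest value in PBS tumour 54 and the lowest in Tretinoin+ICT tumour 45. The ratio of H2-DMb1 to H2-DMb2 was 1.02 to 1.46 over all groups. Of the lymph node markers, Cxcl13, a chemokine for B cells, fell by 0.999 in Tretinoin and by 1.53 in Tretinoin+ICT against PBS (log2, edgeR adjusted p = 0.027 and 5.4e-05), and Ccl19 rose by 1.11 in Tretinoin+ICT.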
